A study of Bos indicus and Bos indicus x Bos taurus and Bos taurus with 6 samples.

Results

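The genes described here are 9 genes known for red blood cell membranes and red cell development, measured by RNA sequencing in the whole blood of cows of 3 breeds under heat stress. They were taken by symbol from the deposited count table of 21698 genes, and all 9 were found there. They are SLC4A1, EPB42, EPB41, ANK1 and SPTB of the membrane and its skeleton, AHSP and TRIM58 of the maturing red cell, and the transcription factor genes KLF1 and GATA1. The breeds were Kedah-Kelantan, a Bos indicus breed indigenous to the tropics that the labels call heat-tolerant, Brangus, a composite breed called intermediate, and Holstein Friesian, a temperate Bos taurus breed called heat-vulnerable. Each breed had 2 libraries from biological replicates, so n = 2 per breed throughout, while the submitters describe 4 animals per breed. The animals were adult females, neither pregnant nor lactating, kept on 1 farm in Malaysia and bled from the jugular vein. Per the labels the cows were 4.5 ± 1.2 years old and weighed 450 ± 15 kg. The labels give every sample the same temperature-humidity index of 44.68, so breeds, not heat loads, are compared here.

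A mammalian red cell keeps its shape through a spectrin network tied to its membrane. Band 3, the anion exchanger encoded by SLC4A1, is held to beta-spectrin (SPTB) by ankyrin (ANK1), with protein 4.2 (EPB42) stabilising that link, while protein 4.1 (EPB41) joins spectrin to actin. GATA1 and KLF1 switch on these genes and the globins during red cell development in the marrow. Mature red cells have no nucleus, and healthy adult cattle release few reticulocytes, the young red cells that still hold RNA. GATA1 is also a regulator of megakaryocytes, eosinophils, basophils and mast cells, and EPB41 is transcribed in many cell types.

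Total counts were 25275377 to 28668857 per library. The 2 Holstein Friesian libraries stood apart from each other. The replicates of a breed differed, at the median over well-expressed genes and on an absolute log2 scale, by 0.13 in Kedah-Kelantan cows, 0.18 in Brangus cows and 0.48 in Holstein Friesian cows. Over 11 eosinophil, basophil and mast cell markers the summed level was 472 and 496 CPM, the count relative to the TMM-scaled size of the library, in Kedah-Kelantan cows, 59.2 and 48.5 CPM in Brangus cows and 57.4 and 1380 CPM in Holstein Friesian cows, replicate 1 first. Neutrophil, monocyte and B cell markers also differed, at 463, 870 and 3010 CPM in Holstein Friesian replicate 1 and 7270, 7960 and 189 CPM in replicate 2. The 13 platelet and megakaryocyte markers summed to 689 and 716 CPM in Kedah-Kelantan cows, 1780 and 1800 CPM in Brangus cows and 537 and 1950 CPM in Holstein Friesian cows. In whole blood, fewer cells of a type and less RNA per cell cannot be told apart.

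Most of the 9 genes were low in this blood, and the cells their reads came from were not tested. The deposited FPKM values, which divide by gene length, allow levels to be compared between genes, and 5 of the 9 genes had a mean below 1 FPKM over the 6 libraries. SLC4A1, whose product is the most abundant protein of the red cell membrane, averaged 0.058 FPKM, SPTB 0.013, EPB42 0.16, ANK1 0.24 and AHSP 0.44 FPKM. KLF1 averaged 1.07, TRIM58 1.29, GATA1 9.96 and EPB41 51.6 FPKM. Among other genes known from red cells, those at 0 counts in all 6 libraries were ICAM4 and TSPO2 of 25 membrane genes, CA1 of 22 late maturation genes and HBA1 of 10 globin genes, and 0 of 17 regulators and 0 of 13 heme synthesis genes were. HBA1 is a near-identical copy of HBA, so its reads are uncertain. HBB, the beta-globin gene, had 2831 to 14770 counts. By counts, 4 of the 9 genes were at 0 in at least 1 library, and 7 of the 9 passed the low-count filter and could be tested. SLC4A1 and SPTB did not pass.

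**Figure D1:**
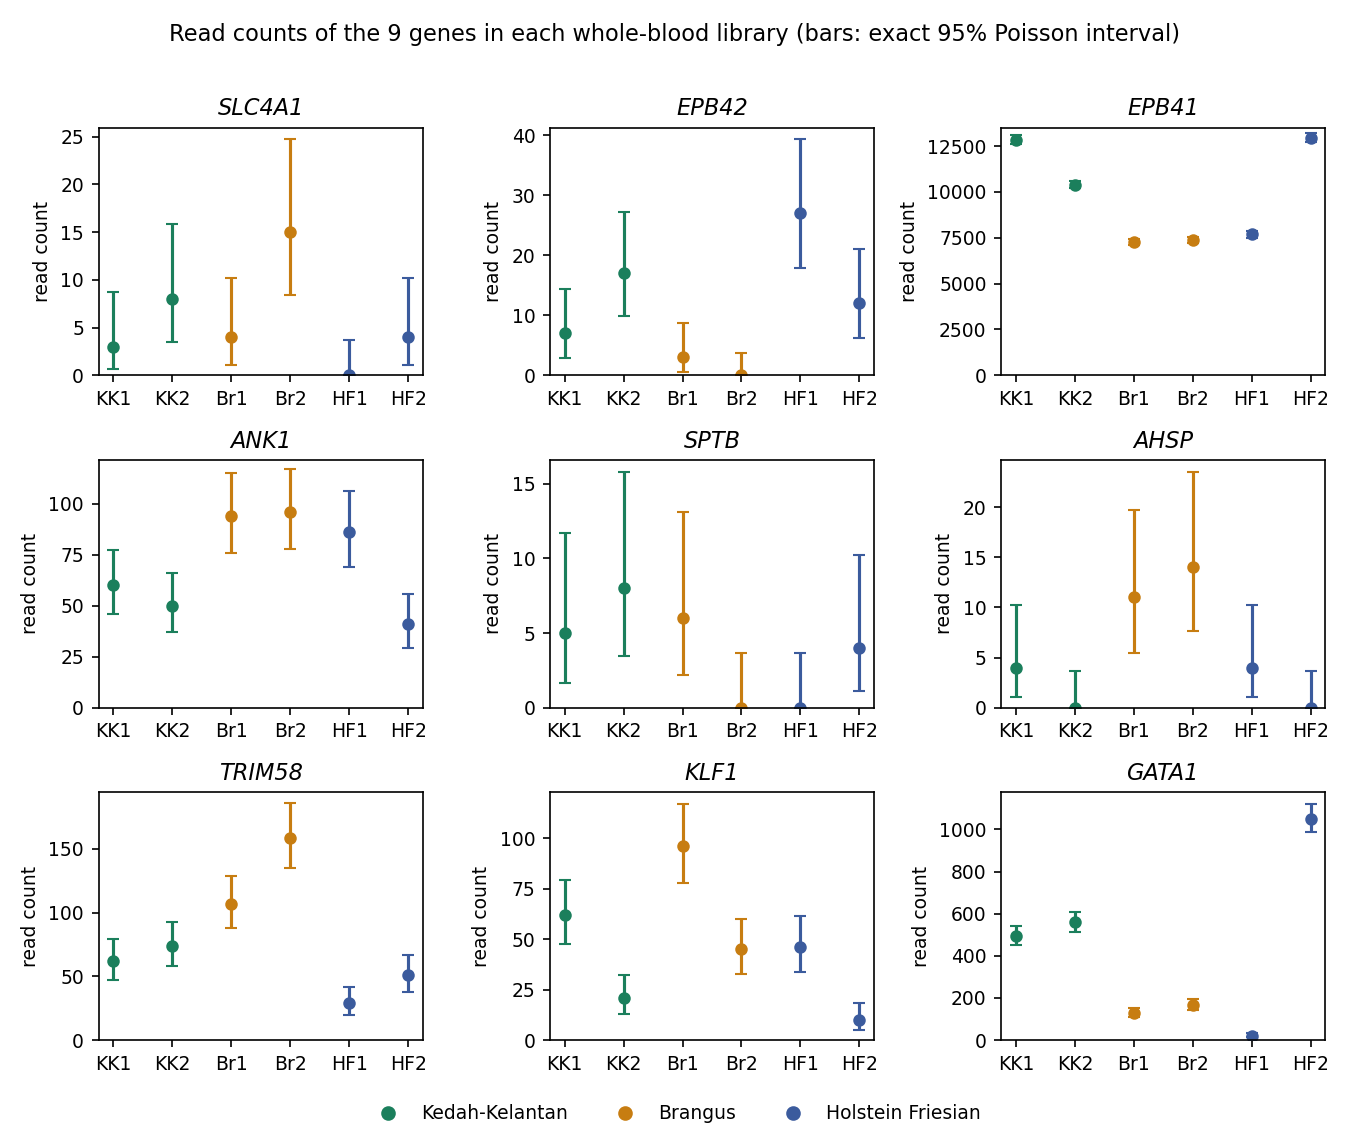
Read counts of the 9 genes (vertical axes, each from 0) in the 6 libraries, with KK standing for Kedah-Kelantan, Br for Brangus and HF for Holstein Friesian and the replicate number after it. Bars are exact 95% Poisson intervals, which cover counting error only. EPB41 lies between 7263 and 12953 counts, GATA1 runs between 21 and 1050 counts with both extremes in Holstein Friesian, and SLC4A1, SPTB, AHSP and EPB42 stay at or below 27 counts.

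EPB41 (gene-EPB41, chromosome 2, 124429212 to 124610766, minus strand), encoding protein 4.1, which ties spectrin to actin, was by far the most abundant of the 9 genes. It had 12851 and 10392 counts in Kedah-Kelantan cows, 7263 and 7370 in Brangus cows and 7684 and 12953 in Holstein Friesian cows. The Holstein Friesian libraries held both the lowest and the highest level, and the Kedah-Kelantan libraries lay above the Brangus ones. In CPM it averaged 376 ± 53.6 (SD, n = 2) in Kedah-Kelantan cows, 314 ± 3.99 in Brangus cows and 375 ± 166 in Holstein Friesian cows. By mean FPKM, 6.27% of all genes in the table were higher. Its highest library was 1.91 times its lowest, the narrowest range of the 5 genes with counts above 3 in every library.

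EPB41 passed in none of the comparisons by edgeR. On the log2 scale it differed by 0.00 (SE 0.33, adjusted p = 1.0) for Kedah-Kelantan versus Holstein Friesian, -0.26 (SE 0.33, adjusted p = 0.82) for Brangus versus Holstein Friesian, and 0.26 (SE 0.33, adjusted p = 0.794) for Kedah-Kelantan versus Brangus. The second value depended on which Holstein Friesian library was kept. Without replicate 1 it was -0.65 and passed (adjusted p = 0.014, over all alternatives 0.014 to 0.958), where 32.9% of all genes tested also passed, and without replicate 2 it was 0.25. TMEM200B, on the other strand, shares 609 bases with EPB41 and had at most 18 counts.

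The genes of band 3, protein 4.2 and beta-spectrin were at the limit of detection. SLC4A1 (gene-SLC4A1, chromosome 19, 44066247 to 44082437, minus strand) had 3 and 8 counts in Kedah-Kelantan cows, 4 and 15 in Brangus cows and 0 and 4 in Holstein Friesian cows. SPTB (gene-SPTB, chromosome 10, 76887137 to 77019130, minus strand) had 5 and 8 counts in Kedah-Kelantan cows, 6 and 0 in Brangus cows and 0 and 4 in Holstein Friesian cows. The lower Brangus library and the higher Holstein Friesian library both had 4 SLC4A1 counts, and SPTB was at 0 in 1 library of each of these breeds, so no difference between breeds was detectable at this depth. Where no read was counted, a limit of 3 counts corresponds to 0.101 CPM in Holstein Friesian replicate 1 and 0.129 CPM in Brangus replicate 2. PLEKHG3, on the other strand, shares 5035 bases with SPTB and had 760 to 2699 counts. The strand setting of the counting is not given in the sources used here, so the few SPTB reads cannot be told apart from PLEKHG3 reads.

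EPB42 (gene-EPB42, chromosome 10, 38405138 to 38424273, minus strand), whose product stabilises the hold of ankyrin on band 3, was low as well. It had 7 and 17 counts in Kedah-Kelantan cows, 3 and 0 in Brangus cows and 27 and 12 in Holstein Friesian cows. Both Brangus libraries lay below the other 4. The log2 fold change was -0.80 (SE 1.35, edgeR adjusted p = 0.995) for Kedah-Kelantan versus Holstein Friesian, -3.32 (SE 1.57, adjusted p = 0.659) for Brangus versus Holstein Friesian and 2.51 (SE 1.55, adjusted p = 0.568) for Kedah-Kelantan versus Brangus, so EPB42 did not pass. With a Brangus library at 0 and the other at 3 counts, the fold changes that involve Brangus are set by the fit rather than measured. Of the genes with 8 to 15 counts in one library of a breed, the share at 0 in its replicate was 4.26% in Kedah-Kelantan cows, 37.5% in Brangus cows and 21.4% in Holstein Friesian cows.

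ANK1 (gene-ANK1, chromosome 27, 36564496 to 36809755, minus strand), encoding the ankyrin that holds band 3 to spectrin, was low but detected in every library. It had 60 and 50 counts in Kedah-Kelantan cows, 94 and 96 in Brangus cows and 86 and 41 in Holstein Friesian cows. The Brangus libraries agreed closely and were the 2 highest in CPM, and the Holstein Friesian libraries differed 1.85-fold. The means were 1.78 ± 0.216 CPM in Kedah-Kelantan cows, 4.07 ± 0.0703 CPM in Brangus cows and 2.22 ± 0.938 CPM in Holstein Friesian cows (SD, n = 2 each). ANK1 did not pass edgeR's test, with log2 fold changes of -0.32 (SE 0.52, adjusted p = 0.995) for Kedah-Kelantan versus Holstein Friesian, 0.87 (SE 0.52, adjusted p = 0.669) for Brangus versus Holstein Friesian and -1.19 (SE 0.52, adjusted p = 0.46) for Kedah-Kelantan versus Brangus. Leaving out Holstein Friesian replicate 1 gave 0.19 for the first and 1.38 for the second, and leaving out replicate 2 gave -0.74 and 0.46.

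Over the 6 libraries ANK1 moved with ALAS2, the erythroid enzyme of the first step of heme synthesis. ALAS2 had 68 and 66 counts in Kedah-Kelantan cows, 106 and 123 in Brangus cows and 127 and 53 in Holstein Friesian cows, and the order of the libraries by CPM was the same for both genes. The ribosomal protein gene RPS6, which is not particular to red cells, had this order as well. For every 100 ALAS2 counts there were 88.2 and 75.8 ANK1 counts in Kedah-Kelantan cows, 88.7 and 78.0 in Brangus cows and 67.7 and 77.4 in Holstein Friesian cows. Against HBB, the beta-globin gene, ANK1 varied more, from 6.5 per 1000 HBB counts in Brangus replicate 2 to 30.4 in Holstein Friesian replicate 1. ALAS2, RPS6 and HBB were set beside these genes after their values were seen. The share of red cell RNA in this was not tested.

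AHSP (gene-AHSP, chromosome 25, 27543234 to 27544133, plus strand), a chaperone that binds free alpha-globin in developing red cells, was nearly absent. It had 4 and 0 counts in Kedah-Kelantan cows, 11 and 14 in Brangus cows and 4 and 0 in Holstein Friesian cows. The Brangus libraries were the 2 highest, with Poisson intervals of 5.49 to 19.7 and 7.65 to 23.5 counts. The interval of the libraries at 4 counts, 1.09 to 10.2, overlapped both of these, and that of the libraries at 0, which reaches 3.69, overlapped neither. The log2 fold changes were -0.09 (SE 1.96) for Kedah-Kelantan versus Holstein Friesian, 2.88 (SE 1.91) for Brangus versus Holstein Friesian and -2.97 (SE 1.91) for Kedah-Kelantan versus Brangus, with edgeR adjusted p of 1.0, 0.684 and 0.583, so AHSP did not pass. With Kedah-Kelantan and Holstein Friesian each at 4 and 0 counts, these fold changes too are set largely by the fit. Per 1000 HBB counts there were 0.894 and 0 AHSP counts in Kedah-Kelantan cows, 1.08 and 0.948 in Brangus cows and 1.41 and 0 in Holstein Friesian cows.

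TRIM58 (gene-TRIM58, chromosome 7, 41227993 to 41242828, plus strand), a ubiquitin ligase that in mouse and human erythroblasts acts on dynein around enucleation, was highest in Brangus. It had 62 and 74 counts in Kedah-Kelantan cows, 107 and 159 in Brangus cows and 29 and 51 in Holstein Friesian cows. No 2 breeds overlapped in CPM, in the order Brangus, Kedah-Kelantan, Holstein Friesian, although Kedah-Kelantan replicate 1 and Holstein Friesian replicate 2 were close at 2.00 and 1.94 CPM. The means were 2.2 ± 0.29 CPM in Kedah-Kelantan cows, 5.71 ± 1.59 CPM in Brangus cows and 1.46 ± 0.683 CPM in Holstein Friesian cows (SD, n = 2 each).

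The largest TRIM58 difference was between Brangus and Holstein Friesian, at a log2 fold change of 1.97 (SE 0.56). By edgeR's quasi-likelihood test it had an unadjusted p of 0.0149 and did not pass over all genes (adjusted p = 0.645). DESeq2 called it (adjusted p = 0.0411, over all alternatives 0.0411 to 0.954) among 2.33% of all genes it tested. It also passed edgeR's test without Holstein Friesian replicate 2, at 2.51 (adjusted p = 0.0477), where 6.05% of all genes passed. The other values were 0.60 (SE 0.55, adjusted p = 0.995) for Kedah-Kelantan versus Holstein Friesian and -1.37 (SE 0.55, adjusted p = 0.429) for Kedah-Kelantan versus Brangus. The direction of all 3 was the same in every fit that left out 1 library. Fitted on the Kedah-Kelantan and Brangus libraries alone, the last was -1.37 and passed (adjusted p = 0.0458, over all alternatives 0.0458 to 0.999), where 18.7% of all genes passed.

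TRIM58 lay close to HBB, but the order of the libraries by CPM differed. Holstein Friesian replicate 2 lay above both Kedah-Kelantan libraries for HBB and below both for TRIM58. HBB had 4476 and 5568 counts in Kedah-Kelantan cows, 10231 and 14770 in Brangus cows and 2831 and 6011 in Holstein Friesian cows. Per 1000 HBB counts there were 13.9 and 13.3 TRIM58 counts in Kedah-Kelantan cows, 10.5 and 10.8 in Brangus cows and 10.2 and 8.48 in Holstein Friesian cows. The platelet chemokine gene PF4 was also highest in Brangus, at 104 and 138 CPM in Kedah-Kelantan cows, 709 and 687 in Brangus cows and 258 and 276 in Holstein Friesian cows. F13A1, another abundant gene of the platelet list, was highest in Holstein Friesian replicate 2. It was at 378 and 358 CPM in Kedah-Kelantan cows, 484 and 368 in Brangus cows and 118 and 1390 in Holstein Friesian cows. Of the 11 genes of that list tested, 9 had positive and 2 negative log2 fold changes for Brangus versus Holstein Friesian. Per 1000 PF4 counts, TRIM58 ranged more widely, at 19.1 and 17.5 in Kedah-Kelantan cows, 6.47 and 9.94 in Brangus cows and 3.78 and 7.03 in Holstein Friesian cows. These companions were chosen after their values were seen, and the part of red cell or platelet RNA in the TRIM58 difference was not tested.

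KLF1 (gene-KLF1, chromosome 7, 12671237 to 12675539, plus strand), the zinc finger factor that activates beta-globin, was low and varied within every breed. It had 62 and 21 counts in Kedah-Kelantan cows, 96 and 45 in Brangus cows and 46 and 10 in Holstein Friesian cows. The libraries of a breed differed 2.92-fold in Kedah-Kelantan cows, 2.13-fold in Brangus cows and 4.06-fold in Holstein Friesian cows, and within each breed the 95% Poisson intervals did not overlap. The mean was 1.34 ± 0.928 CPM in Kedah-Kelantan cows, 3.02 ± 1.54 CPM in Brangus cows and 0.962 ± 0.823 CPM in Holstein Friesian cows. The differences between breeds were not larger than this spread by edgeR's test, with log2 fold changes of 0.47 (SE 0.98, adjusted p = 0.995), 1.64 (SE 0.99, adjusted p = 0.671) and -1.17 (SE 0.98, adjusted p = 0.676) for Kedah-Kelantan versus Holstein Friesian, Brangus versus Holstein Friesian and Kedah-Kelantan versus Brangus. The first turned to -0.50 without Kedah-Kelantan replicate 1 and to -0.25 without Holstein Friesian replicate 2. KLF1 did not keep a steady ratio to HBB, at 13.9 and 3.77 KLF1 counts per 1000 HBB counts in Kedah-Kelantan cows, 9.38 and 3.05 in Brangus cows and 16.2 and 1.66 in Holstein Friesian cows.

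GATA1 (gene-GATA1, chromosome X, 86899831 to 86906484, plus strand), the zinc finger factor that directs red cell, megakaryocyte and eosinophil development, varied most of the 5 among the 9 genes that had more than 3 counts in every library. It had 495 and 559 counts in Kedah-Kelantan cows, 130 and 166 in Brangus cows and 21 and 1050 in Holstein Friesian cows. In CPM the Holstein Friesian libraries differed 56.6-fold, while those of Kedah-Kelantan differed 1.14-fold and those of Brangus 1.28-fold. The 4 other libraries all lay between the 2 Holstein Friesian ones, and both Kedah-Kelantan libraries lay above both Brangus libraries. The means were 17.0 ± 1.58 CPM in Kedah-Kelantan cows, 6.35 ± 1.11 CPM in Brangus cows and 20.3 ± 27.7 CPM in Holstein Friesian cows (SD, n = 2 each).

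GATA1 did not pass edgeR's test over all 6 libraries. On the log2 scale the difference was -0.25 (SE 1.46, adjusted p = 0.997) for Kedah-Kelantan versus Holstein Friesian and -1.68 (SE 1.51, adjusted p = 0.746) for Brangus versus Holstein Friesian. Both took opposite signs according to the Holstein Friesian library kept, and passed either way. Without replicate 1, Kedah-Kelantan versus Holstein Friesian was -1.23 (adjusted p = 0.0103) and Brangus versus Holstein Friesian -2.65 (adjusted p = 0.00025), where 18.2% and 32.9% of all genes passed. Without replicate 2 they were 4.54 (adjusted p = 0.000991) and 3.13 (adjusted p = 0.00461), where 12.3% and 6.05% of all genes passed. Over all alternatives the adjusted p ran from 0.000991 to 1.0 and from 0.00025 to 0.954. No direction versus Holstein Friesian can be given from these libraries.

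The replicates of Kedah-Kelantan and of Brangus were close, and the mean GATA1 level in CPM was 2.69 times higher in Kedah-Kelantan than in Brangus. This was 1.42 on the log2 scale (SE 1.5, adjusted p = 0.742) with the spread shared over all 6 libraries. In the fit on the 4 libraries of these 2 breeds it was 1.43 (SE 0.24) and passed (edgeR adjusted p = 0.00713, over all alternatives 0.00498 to 0.999), where 18.7% of all genes passed. It was positive, at 1.24 to 1.61, in every fit that left out 1 library. It passed without Holstein Friesian replicate 1 (1.42, adjusted p = 0.00498, 18.3% of all genes) and without replicate 2 (1.42, adjusted p = 0.0106, 18.4%), and it did not pass without a Kedah-Kelantan or a Brangus library.

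Like GATA1, the eosinophil, basophil and mast cell genes CCR3, GATA2 and ALOX15 were highest in Holstein Friesian replicate 2. They were also higher in both Kedah-Kelantan libraries than in both Brangus ones. Only CCR3 was counted well enough to order the lowest libraries, and there it followed GATA1. CCR3, the eotaxin receptor of eosinophils, had 4651 and 5203 counts in Kedah-Kelantan cows, 423 and 522 in Brangus cows and 221 and 12643 in Holstein Friesian cows, and placed the 6 libraries in the same order by CPM as GATA1 did. This order was not particular to CCR3, since the summed CPM of 10 monocyte markers gave it too. That sum was 1650 and 1870 in Kedah-Kelantan cows, 1270 and 1360 in Brangus cows and 870 and 7960 in Holstein Friesian cows. GATA2, a factor of mast cells and basophils, had 127 and 152 counts in Kedah-Kelantan, 0 in both Brangus libraries, and 1 and 339 in Holstein Friesian. ALOX15, a lipoxygenase of human eosinophils, had 5550 and 5639 counts in Kedah-Kelantan cows, 3 and 0 in Brangus cows and 7 and 16142 in Holstein Friesian cows. Holstein Friesian replicate 1 lay below both Brangus libraries for GATA1 and CCR3. GATA2 and ALOX15 had at most 7 counts in these libraries, too few to order them, while GATA1 had 130 and 166 counts in Brangus. For every 100 CCR3 counts there were 10.6 and 10.7 GATA1 counts in Kedah-Kelantan cows, 30.7 and 31.8 in Brangus cows and 9.5 and 8.3 in Holstein Friesian cows. GATA1 was thus higher relative to CCR3 in the Brangus libraries. Per 1000 counts of the platelet gene PF4 there were 153 and 132 GATA1 counts in Kedah-Kelantan cows, 7.86 and 10.4 in Brangus cows and 2.74 and 145 in Holstein Friesian cows, so that ratio was not steady either. Of the 11 eosinophil, basophil and mast cell markers in the table, 10 were tested and 0 were called by edgeR in any comparison, and HDC had at most 6 counts. For Kedah-Kelantan versus Brangus, 8 of the 10 had positive and 2 had negative log2 fold changes, so not all of these markers went with GATA1. The part of these cells or of monocytes in the GATA1 difference was not tested.

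**Figure D2:**
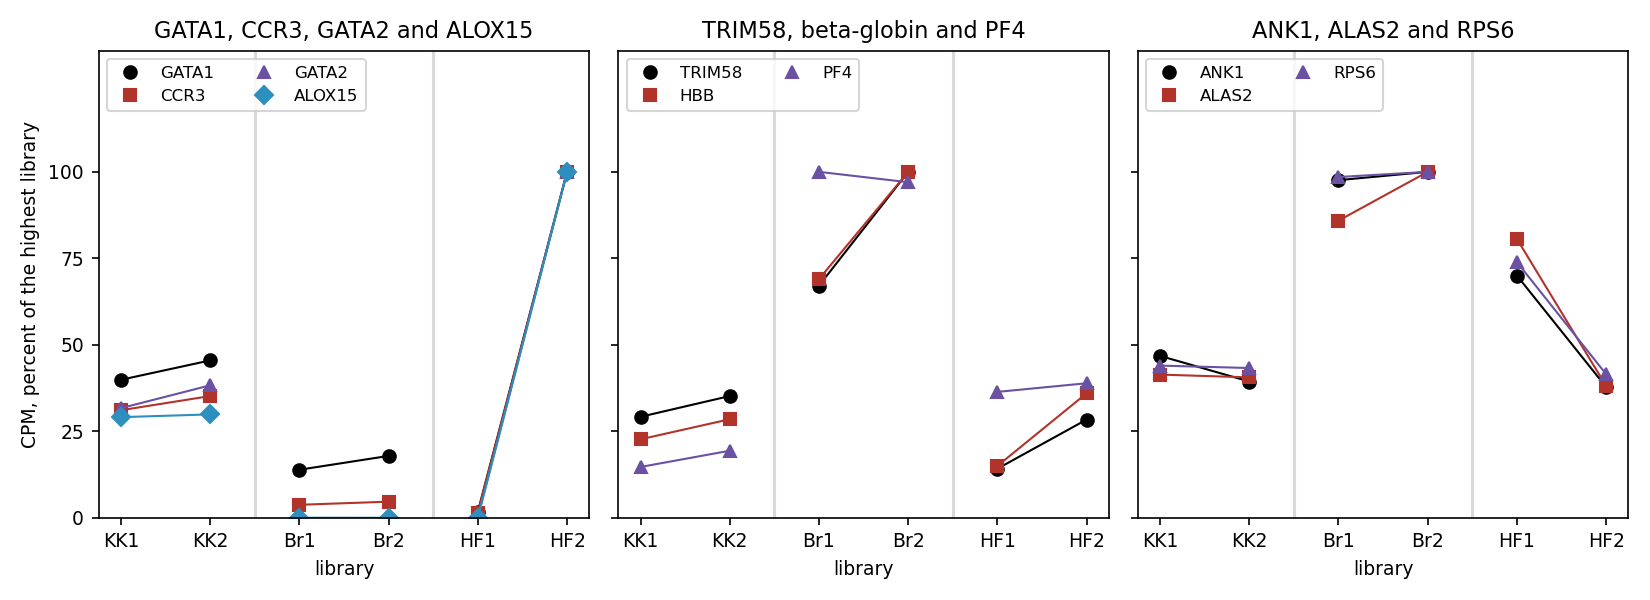
CPM of each gene as a percentage of its highest library (vertical axis, 0 to 100) in the 6 libraries (horizontal axis, KK standing for Kedah-Kelantan, Br for Brangus and HF for Holstein Friesian), with lines joining the 2 libraries of a breed. GATA1 and CCR3 peak in Holstein Friesian replicate 2 and are at 1.77% and 1.54% of that peak in replicate 1, TRIM58 and HBB peak together in Brangus replicate 2, and ANK1, ALAS2 and RPS6 are lowest in Kedah-Kelantan and Holstein Friesian replicate 2.

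Over the 7 genes tested, edgeR called 0 in each of the 3 comparisons and 0 in the test of any breed difference. In all genes tested, it called 0.00743% for Kedah-Kelantan versus Holstein Friesian, 0.00743% for Brangus versus Holstein Friesian and 0.0% for Kedah-Kelantan versus Brangus and for any breed. At an unadjusted p under 0.05 there was 1 gene, TRIM58, for Brangus versus Holstein Friesian, where 7.62% of all genes reached it, and for any breed difference, where 8.23% did. There was none for Kedah-Kelantan versus Holstein Friesian (4.04% of all genes) or for Kedah-Kelantan versus Brangus (11.6%). DESeq2 called 0, 1 and 0 in the 3 comparisons, where it called 1.01%, 2.33% and 4.99% of all genes, and TRIM58 for any breed, where it called 4.65%.

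Libraries of the breeds compared did not overlap for 1 of the 7 genes tested in Kedah-Kelantan versus Holstein Friesian, 5 in Brangus versus Holstein Friesian and 6 in Kedah-Kelantan versus Brangus. Over all genes tested this was so for 30.7%, 34.3% and 64.2%. By direction, 18.1% of all genes were higher and 12.6% lower without overlap in the first comparison, 18.4% and 15.9% in the second, and 33.5% and 30.7% in the third. TRIM58, ANK1, KLF1 and AHSP were higher and EPB42 lower in both Brangus libraries than in both Holstein Friesian ones. TRIM58, ANK1 and AHSP were lower and GATA1, EPB41 and EPB42 higher in both Kedah-Kelantan libraries than in both Brangus ones. KLF1 was apart only after scaling for library size, with 45 counts in Brangus replicate 2 and 46 in Holstein Friesian replicate 1. AHSP had at most 14 counts in any library and EPB42 had 3 and 0 in Brangus, so these separations lie near the limit of detection. The median log2 fold change of the 7 was -0.09, 0.87 and -1.17 in the 3 comparisons, against -0.03, -0.03 and 0.02 for all genes. The first comparison and the second share the Holstein Friesian libraries, and the third shares libraries with each of them.

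**Figure D3:**
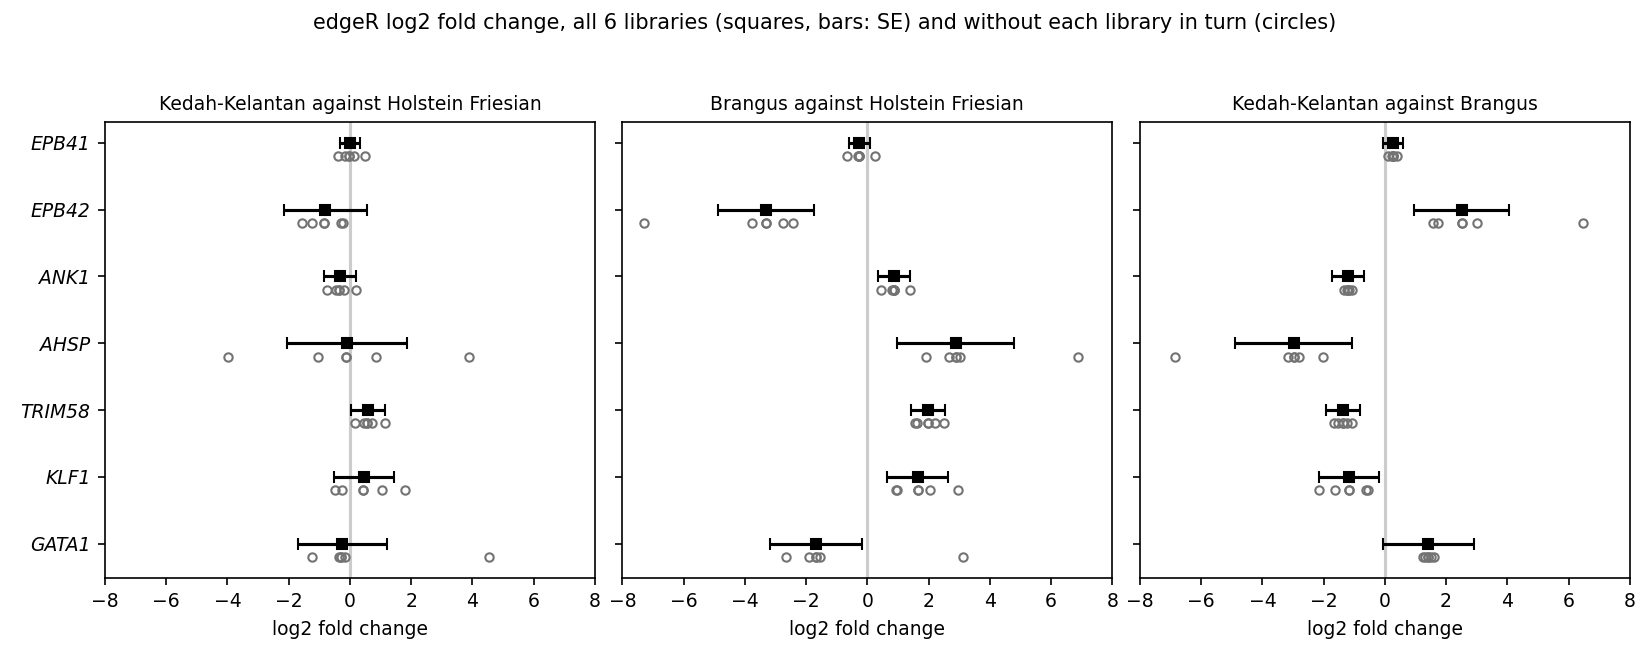
log2 fold change (horizontal axis) of the 7 tested genes in the 3 breed comparisons, with squares for edgeR's fit on all 6 libraries, bars for its SE and open circles for the fits that leave out 1 library each. GATA1 lies on both sides of 0 versus Holstein Friesian, between -1.23 and 4.54 for Kedah-Kelantan and between -2.65 and 3.13 for Brangus, while TRIM58 keeps its side of 0 in all 3 panels.

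The 9 genes did not share 1 pattern. Over the 21 pairs of tested genes, the root mean square difference between centred log2 CPM profiles over the 6 libraries was smallest for AHSP and KLF1 (0.61) and for ANK1 and KLF1 (0.67), and largest for AHSP and GATA1 (2.62). AHSP has at most 14 counts, so its profile is coarse. GATA1 was the farthest from KLF1, its partner factor in red cell development, of the 4 other genes counted above 3 in every library (2.50 from KLF1, against 1.24 for EPB41). The mean profile of the 7 genes was nearest to those of UFSP2 (0.10), C11H2orf68 (0.11), RABGAP1L (0.13), BLZF1 (0.13) and DESI1 (0.14) among 9112 genes with a mean log2 CPM of at least 3.

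For single genes, likenesses were looked up after the values were seen, among the same 9112 genes. Nearest to GATA1 was CD300LF, an inhibitory receptor of myeloid cells, with a difference of 0.14. It was at 24.7 and 23.4 CPM in Kedah-Kelantan cows, 8.05 and 9.92 in Brangus cows and 1.31 and 59.0 in Holstein Friesian cows. Nearest to TRIM58 were PDLIM1 and HBB (0.24 each) and, at 0.25, the platelet receptor gene MPIG6B. Nearest to ANK1 were CLHC1 (0.06) and the ribosomal protein genes RPS6 (0.07), RPL6 and RPL11 (0.09 each). RPS6 was at 1210 and 1190 CPM in Kedah-Kelantan cows, 2720 and 2760 in Brangus cows and 2040 and 1150 in Holstein Friesian cows. Reads of ribosomal protein genes may be shared with pseudogenes, which makes these levels uncertain. EPB41 was nearest to MORC3 and ARID3A, at 0.06 each, and to MYH9, the heavy chain of non-muscle myosin, also at 0.06. KLF1 had no near neighbour among these genes, the closest being SSBP2 at 0.48. Genes as low as KLF1, at 0.38 to 4.11 CPM, were not part of that search.

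Other genes of the red cell membrane did not pass either. Of 28 genes listed, 25 were in the table and 15 were tested. For Kedah-Kelantan versus Holstein Friesian 10 had positive and 5 negative fold changes (median 0.16), for Brangus versus Holstein Friesian 5 and 10 (median -0.16), and for Kedah-Kelantan versus Brangus 10 and 5 (median 0.18), with 0 called by edgeR. The 3 most abundant by FPKM were CD47, the "do not eat me" signal found on most blood cells, ADD3, a subunit of adducin, and GYPC, glycophorin C. GYPC, a binding partner of protein 4.1, averaged 74.2 ± 7.66 FPKM in Kedah-Kelantan cows, 96.7 ± 29 in Brangus cows and 92.7 ± 31.9 in Holstein Friesian cows, and its log2 fold changes were -0.46 (SE 0.30), 0.18 (SE 0.30) and -0.64 (SE 0.30). CD47 and ADD3 had log2 fold changes between -0.02 and 0.24.

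Of 17 other regulators of red cell development, 15 were tested and 0 were called, with medians of -0.04, -0.29 and 0.30 in the same order. RHEX, LMO2 and LDB1 were the most abundant. RHEX has a known role downstream of the erythropoietin receptor. It was at 148 and 162 CPM in Kedah-Kelantan cows, 31.6 and 37.6 in Brangus cows and 75.4 and 387 in Holstein Friesian cows. It was thus lowest in Brangus, and its log2 fold changes were -0.58 (SE 0.72), -2.74 (SE 0.77) and 2.16 (SE 0.75). LMO2, a partner of GATA1 in erythroid complexes, went the other way between the Holstein Friesian libraries, at 402 and 108 CPM. EPOR, the erythropoietin receptor gene itself, had at most 4 counts in any library.

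Of 22 genes of late red cell maturation, 19 were tested, with medians of -0.11, 0.06 and -0.07, and of 13 genes of heme synthesis all 13 were tested, with medians of -0.08, -0.01 and -0.07. Neither list had a called gene. PRDX2 and BNIP3L were among the most abundant in the first, and TMEM14C, GLRX5 and SLC25A38 were the most abundant in the second. BNIP3L, which drives mitochondrial removal from reticulocytes, had log2 fold changes of -0.29, -0.22 and -0.07 (SE 0.39 each). Of the globin genes listed, 10 were in the table and 4 were tested, with medians of -0.06, 1.29 and -0.89. HBB had log2 fold changes of 0.01 (SE 0.45, edgeR adjusted p = 1.0), 1.73 (SE 0.46, adjusted p = 0.645) and -1.72 (SE 0.46, adjusted p = 0.359), and it did not pass.

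Some relatives of these genes that serve other cells were far more abundant. Beta-spectrin SPTBN1, the non-erythroid form, averaged 20.5 FPKM, against 0.013 FPKM for SPTB. The anion exchanger gene SLC4A2 averaged 5.50 FPKM, against 0.058 FPKM for SLC4A1. KLF2, a factor of quiescent lymphocytes, averaged 236 FPKM and KLF6 74.0 FPKM, against 1.07 FPKM for KLF1. Ankyrin and protein 4.1 went the other way, since ANK2 and ANK3 averaged 0.055 and 0.032 FPKM, below the 0.24 FPKM of ANK1, and EPB41L2 and EPB41L3 averaged 3.32 and 2.92 FPKM, below the 51.6 FPKM of EPB41. GATA3, the T cell factor, varied much less than GATA1, at 9.41 and 11.1 FPKM in Kedah-Kelantan cows, 6.94 and 6.61 in Brangus cows and 8.35 and 10.01 in Holstein Friesian cows. GATA1 was at 12.1 and 13.6 FPKM in Kedah-Kelantan cows, 3.52 and 4.46 in Brangus cows and 0.50 and 25.6 in Holstein Friesian cows. These relatives were chosen after values were seen and are given as levels, without a test between genes.

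**Figure D4:**
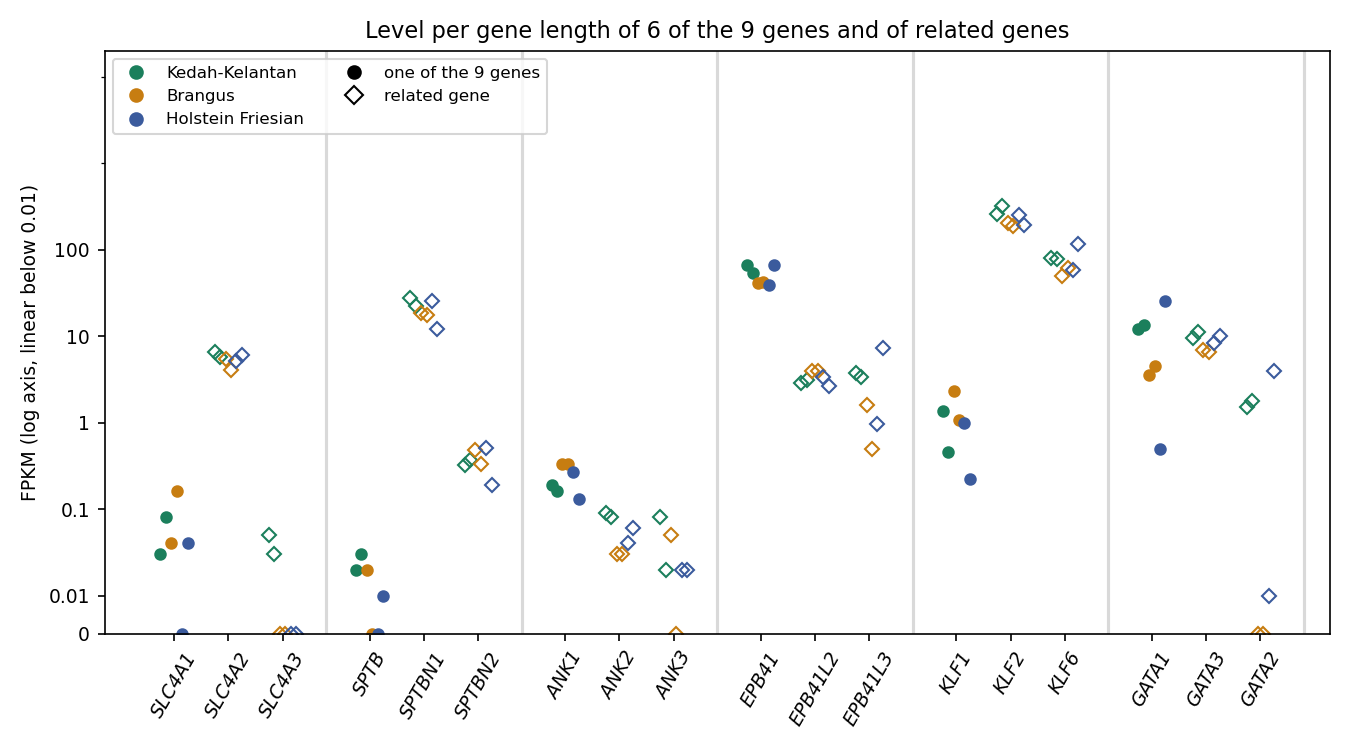
FPKM (vertical axis, logarithmic above 0.01 and linear below) of 6 of the 9 genes (filled circles) and 2 related genes each (open diamonds) in the 6 libraries, coloured by breed, with Kedah-Kelantan on the left, Brangus in the middle and Holstein Friesian on the right of each gene. SLC4A1 and SPTB lie at or below 0.16 FPKM in every library while SLC4A2 and SPTBN1 lie between 4.1 and 27.54 FPKM, and EPB41 and ANK1 lie above their relatives.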

How the data were processed

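Whole-blood RNA was extracted with PrimeZOL reagent, per the labels' protocols. FastQC 0.11.9, Trimmomatic 0.39, HISAT2 2.2.1, featureCounts 2.0.1, DESeq2 1.38.0 and the build ARS-UCD1.2 are named, per the submitters' processing notes, with no role or setting. Positions are the authors' own, and all 9 genes lie on the same chromosome in a RefSeq gene table of another build. The deposited counts are unnormalised read counts per gene, per the file headers. The deposited FPKM values follow those counts within 0.0255% over 2466 genes and served only for levels between genes.

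The test was edgeR 4.0.16 in R 4.3.3 (TMM scaling, filterByExpr, robust quasi-likelihood fit with breed as its only term over all 6 libraries, F tests). Benjamini-Hochberg adjustment ran over 13455 genes, and adjusted p under 0.05 was called. SE is the log2 fold change over the square root of F. There were 3 residual degrees of freedom. The common biological coefficient of variation was 0.431. The script was tested on simulated data. DESeq2 1.42.0, other settings and fits without each library were alternatives. In a fit without 1 library of a breed, the lone sample is assumed to vary like the other groups.

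The 9 genes and the gene lists were chosen with earlier results of these data known. Named were all 9 genes, the 3 most abundant genes of each other erythroid list, GATA2 and abundant markers, and the 5 genes nearest to the mean profile, except that some items are not reported here. PCR copies of a molecule cannot be told apart here, so Poisson intervals and floors cover counting error only.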

Additional observations from a re-analysis of the deposited data

How the results depend on the processing

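Of the 7 genes tested, 0 were called in all fits except these. DESeq2 called 1 for Brangus versus Holstein Friesian and 1 for any breed difference, and the fit on only the 2 breeds compared called 2 for Kedah-Kelantan versus Brangus, GATA1 and TRIM58. Among the fits without 1 library, calls came only where a Holstein Friesian library was left out. In the 3 comparisons far more of all genes were called there as well, and the cause was not tested. The median log2 fold change ran, without 1 library, from -0.30 to 0.18, from 0.81 to 1.38 and from -1.25 to -0.54 in the 3 comparisons.

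Signs turned for single genes. EPB41 in Kedah-Kelantan versus Holstein Friesian, 0.00 as reported, was -0.0325 with DESeq2, -0.0325 with DESeq2 size factors, -0.0357 with no low-count filter and -0.0035 with only the 2 breeds, and -0.39 to 0.50 without 1 library. In the same comparison, without 1 library, AHSP ran from -3.97 to 3.90, ANK1 from -0.74 to 0.19, KLF1 from -0.50 to 1.80 and GATA1 from -1.23 to 4.54. In Brangus versus Holstein Friesian EPB41 ran from -0.65 to 0.25 and GATA1 from -2.65 to 3.13.

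With the replicate number as a block, 0 of the 7 genes were called in any comparison, and GATA1 in Kedah-Kelantan versus Holstein Friesian turned to 0.68. KLF1, higher in replicate 1 of every breed, was 1.85 (SE 0.71, edgeR adjusted p = 0.792) for Brangus versus Holstein Friesian with this block. The labels give same-numbered libraries only the number in common, and their deviations correlated at 0.06, -0.01 and 0.20 over 9112 genes. Counts of at most 15 limit SLC4A1, SPTB and AHSP, and counts of 3 and 0 in Brangus limit EPB42. Whether breeds differ in these genes cannot be settled at this depth.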

Other observations

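Alpha-globin and beta-globin, which make up haemoglobin in equal parts, were counted at very different levels. HBB averaged 291 ± 42.7 FPKM in Kedah-Kelantan cows, 801 ± 201 FPKM in Brangus cows and 254 ± 132 FPKM in Holstein Friesian cows (SD, n = 2 each), while HBA averaged 1.01 ± 0.707, 1.69 ± 1.99 and 0.945 ± 1.25 FPKM in the same breeds. HBA had 8 and 24 counts in Kedah-Kelantan cows, 44 and 4 in Brangus cows and 1 and 29 in Holstein Friesian cows, and HBA1 had 0 in all 6 libraries. The alpha-globin genes are near-identical copies, so how reads were assigned to them is uncertain, and the handling of reads that match several genes is not given in the sources used here.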
